A study of Neurospora crassa with 8 samples.

Results

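Absence of iron in wild-type Neurospora crassa, a filamentous ascomycete, is described here from 4 of the 8 RNA libraries of the series. The 2 iron-free libraries came from wild-type cultures in Vogel's minimal medium prepared without iron, in glassware stripped with 1 mM EDTA and 5% HCl, and the 2 standard libraries from wild-type cultures in the ordinary iron-containing medium. All cultures were started from conidia, held 1.5% sucrose as carbon source and were shaken for 48 hours at 32 degrees C, and poly(A) RNA was taken from mycelium. The other 4 libraries were from the ve-1 mutant in the same media (2 iron-free, 2 standard). They entered the fit to share its estimate of the spread, and gave the effect of iron absence in another genotype. Libraries were chosen by the labels alone, genotype wt with either growth condition.

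Iron is needed by the cell in heme, in iron-sulfur clusters and at mononuclear and binuclear iron sites of enzymes. The respiratory chain holds many of these cofactors, as do aconitase of the TCA cycle and the catalases. Ascomycetes take up ferric iron through siderophores, small chelators made from ornithine, and in N. crassa the GATA-type factor SRE represses siderophore synthesis when iron is plentiful. In relatives such as Aspergillus, the gene of the SRE counterpart is itself turned down without iron by a CCAAT-binding partner that also lowers iron-consuming pathways.

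Total counts of the wild-type libraries ran from 8562645 to 8820560, and 8118 of 9730 genes had enough counts to be tested. The wild-type replicates of a medium were not copies of each other: a chi-square of their counts, per degree of freedom, came to 160 between the iron-free libraries and 99.8 between the standard libraries, where sampling alone gives about 1. The gene ve-1 had 2977 and 1931 counts in the iron-free libraries, against 1077 and 1533 in the standard libraries, and the 4 libraries of the mutant held 80 or fewer. The mating-type gene matA-1 had 74 and 0 counts in iron-free replicates 1 and 2, against 118 and 0 in standard replicates 1 and 2. NCU09968 followed the same pattern, with 104 and 0.117 CPM (counts relative to the TMM-normalised total of the library) without iron against 122 and 0 with iron. The replicates of a medium were therefore not alike in these genes, and the same replicate number was alike across media. In ve-1 this did not hold, where matA-1 had 1 and 5 counts in the iron-free replicates 1 and 2, against 0 and 403 in the standard ones. Whether replicates 1 and 2 are different strains is not given in the sources used here, and if they are, the spread between replicates also holds the difference between strains. Fewer cells of a type and less RNA per cell cannot be told apart in such bulk samples.

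Without iron, wild type had lower transcript levels of the siderophore repressor gene sre and of cytochrome c. Levels of complex III subunits and of cya-4, a complex IV subunit gene, were lower as well. So were those of TCA cycle and glyoxylate cycle genes, and of catalase and manganese superoxide dismutase. The transporter genes tcu-1 and tcu-3 (copper), tzn-2 (zinc), and pho-4 and pho-5 (phosphate) also had lower levels. Higher levels were found for genes of ergosterol synthesis, for a laccase gene and for few other named genes. At an adjusted p under 0.05 in edgeR's quasi-likelihood test with Benjamini-Hochberg adjustment over all tested genes, 533 genes (6.57%) were called, 119 of them higher (1.47%) and 414 lower (5.1%). All adjusted p values below come from this test, and "rose" and "fell" are used of called genes only. A difference of at least 2-fold held for 108 of the genes called higher and 400 of those called lower, and one of at least 16-fold for 3 and 60. The 2 iron-free and 2 standard libraries did not overlap in any of the 533 genes, nor in 57.5% of all genes tested.

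With 2 cultures a side, the number of calls depended on single libraries. Without iron-free replicate 2 only 7 genes were called (1 higher, 6 lower), and without iron-free replicate 1 there were 138 (69 higher, 69 lower). Leaving out standard replicate 1 left 86 (4 higher, 82 lower), and leaving out standard replicate 2 left 482 (113 higher, 369 lower). The log2 fold changes of the called genes kept their sign in each of these fits. Leaving out a ve-1 standard library also lowered the number of wild-type calls, though these libraries do not enter the wild-type difference. The 7 genes that passed without each wild-type library in turn were sre, the cellodextrin transporter gene cdt-2, NCU00985, NCU05512, NCU06974 and NCU17100, all lower, and NCU03107, higher. When the replicate number was added as a block, 326 genes were called (71 higher, 255 lower), 277 of them among the 533. Genes named below that lost their call with this block are given with its adjusted p. Of the 55 called genes that the naming rule took for wild type, 2 were called in all 4 fits with a wild-type library left out, 11 in 3 fits, 7 in 2, 26 in 1 and 9 in none.

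**Figure D1:**
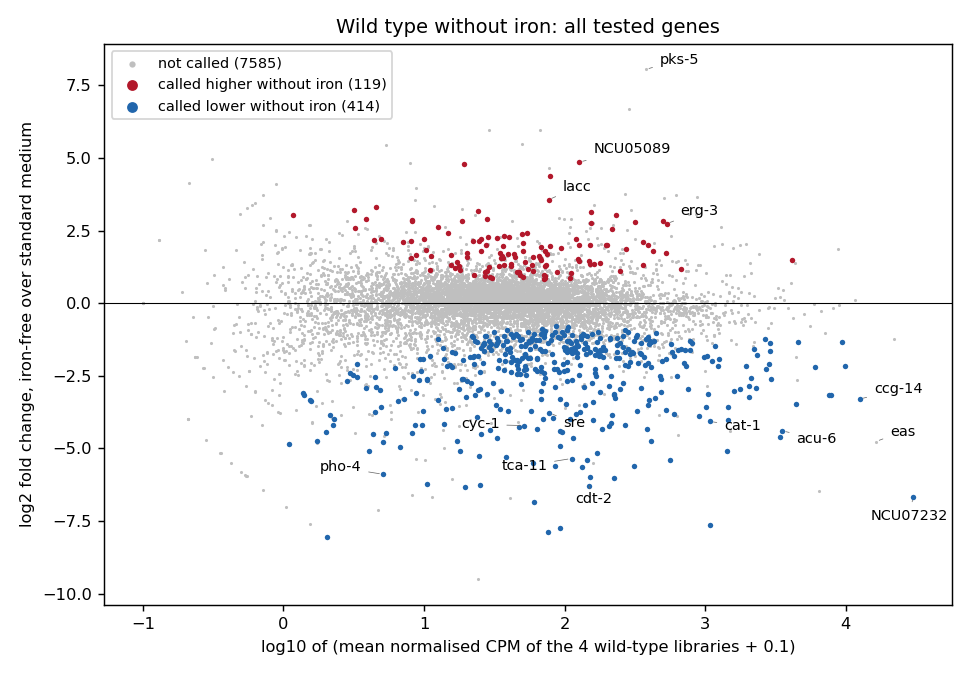
Log2 fold change of iron-free over standard medium in wild type (vertical axis) against the log10 mean level of the 4 libraries (horizontal axis), 1 point per tested gene. Red points are the 119 genes called higher, blue points the 414 called lower and grey points the genes not called. The calls lower reach further from 0 than the calls higher, and pks-5 and eas have large fold changes without a call.

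The repressor gene sre was the only member of its list (iron regulators and siderophores) with a symbol in the annotation used. It had 8.12 and 13.1 CPM in iron-free cultures, against 172 and 117 CPM in standard cultures. Its log2 fold change was -3.77 (SE 0.34, adjusted p = 0.00586), and its groups did not overlap. Over the 4 fits with a wild-type library left out, its log2 fold change ran from -4.06 to -3.42 and its largest adjusted p was 0.0391. The gene ota, of ornithine transaminase, which feeds ornithine into proline and glutamate metabolism, fell as well. It had 3.52 and 1.87 CPM without iron, against 71.2 and 41.4 CPM with iron (log2 fold change -4.36, SE 0.56, adjusted p = 0.0138). Without iron-free replicate 2 the adjusted p of ota was 0.0881. Siderophore synthesis genes and genes of heme and iron-sulfur cluster assembly carry no symbol in the annotation used, so they were not analysed here as groups.

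In the lists named for respiratory complexes, calls fell on cytochrome c and on complexes III and IV. The list named for complexes II to IV and cytochrome c held no gene of complex II. Complex II is also an enzyme of the TCA cycle, and the annotation used does not say which tca genes encode it. Its genes may thus be among the TCA cycle genes given below. Of its 11 tested genes, 5 were lower and none higher, beside 5.1% and 1.47% of all genes. Their median log2 fold change was -1.13, against 0.03 over all genes. The largest change was in cyc-1, the gene of cytochrome c, the small heme protein that carries electrons to cytochrome oxidase. It had 6.13 and 4.32 CPM in iron-free cultures, against 144 and 51.2 CPM in standard cultures. The log2 fold change of cyc-1 was -4.21 (SE 0.65, adjusted p = 0.0209), and its groups did not overlap although the standard cultures differed from each other. Without iron-free replicate 2 its adjusted p was 0.119.

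Complex III (ubiquinol-cytochrome c reductase) had 3 of the 5 falls. The small subunit gene qcr7 had 38.7 and 26.7 CPM without iron, against 204 and 124 CPM with iron (log2 fold change -2.32, SE 0.33, adjusted p = 0.0162). For fes-1, which encodes the Rieske iron-sulfur protein, levels were 55.3 and 56.8 CPM without iron, against 218 and 132 CPM with iron. Its log2 fold change of -1.64 (SE 0.30) had an adjusted p of 0.0262, and 0.0503 with the replicate block. The core subunit gene pep had 131 and 141 CPM without iron, against 485 and 282 CPM with iron (log2 fold change -1.50, SE 0.35, adjusted p = 0.0491, and 0.0837 with the block). In complex IV (cytochrome c oxidase) the subunit gene cya-4 had 130 and 126 CPM without iron, against 405 and 282 CPM with iron. Its log2 fold change was -1.42 (SE 0.26), with an adjusted p of 0.0262, of 0.0564 with the block and of 0.0631 under total-count scaling. Each of these genes was higher in standard replicate 1 than in standard replicate 2, and the iron-free replicates lay closer together than the standard ones.

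The other 6 genes of this list were not called. The oxidase genes cox-4 (log2 fold change -1.13, SE 0.27, adjusted p = 0.0518) and cox-6 (-0.27, SE 0.23) had lower means without iron, as had qcr8 of complex III (-0.99, SE 0.28, adjusted p = 0.0795). The gene of cytochrome c1, cyt-1, had 25.3 and 35.3 CPM without iron, against 27.3 and 24.2 CPM with iron, so its groups overlapped. The processing peptidase gene mpp had 0.86 on the log2 scale (SE 0.21, adjusted p = 0.0571) and passed under total-count scaling (adjusted p = 0.0182).

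Complex I is the proton-pumping NADH dehydrogenase and holds several iron-sulfur clusters. None of its 29 tested nuclear genes was called by edgeR in either direction, while 5 were lower and 0 higher at an unadjusted p under 0.05 and DESeq2 called 2 lower. Their log2 fold changes lay between -1.03 (nuo51, of the flavoprotein subunit that binds NADH) and 0.35 (nuo12.3), with a median of -0.11 that became 0.41 under total-count scaling. The groups did not overlap in 10 of the 29, beside 57.5% of all genes. The summed level of the 29 genes was 3514 and 3755 CPM without iron, against 3814 and 4486 CPM with iron. For nuo51 levels were 103 and 74.7 CPM without iron, against 165 and 198 CPM with iron (SE 0.35, adjusted p = 0.116). The 3 ATP synthase genes tested were not called, with a median of -0.51 and of 0.00 under total-count scaling.

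Alternative respiratory enzymes carry electrons past the proton-pumping complexes, and the alternative oxidase, a di-iron enzyme, hands them from ubiquinol to oxygen. None of the 8 tested genes was called by edgeR, 2 had higher levels at an unadjusted p under 0.05, and DESeq2 called 1 higher. The main alternative oxidase gene aod-1 had 54.4 and 424 CPM in iron-free replicates 1 and 2, against 103 and 116 CPM in standard cultures. The iron-free cultures stood on either side of the standard ones (log2 fold change 1.13, SE 0.91, adjusted p = 0.474). The other oxidase gene, aod-3, had the same order, with 4.42 and 36.2 CPM without iron against 11.4 and 19.9 CPM with iron. Their transcription factor genes aod-2 and aod-5 had log2 fold changes of -0.09 (SE 0.25) and -0.11 (SE 0.19), both positive under total-count scaling. The remaining dehydrogenase genes, nde-3 and ndi-1, had log2 fold changes of -0.28 (SE 0.26) and 0.36 (SE 0.66). Groups did not overlap, without a call, in the alternative NADH dehydrogenase genes nde-1, nde-2 and nde-3, and the direction was not shared. Levels without iron were higher for nde-1 and nde-2. For nde-3 they were lower, with 20.75 and 21.02 CPM without iron against 26 and 24.75 CPM with iron. The levels of nde-1 were 66.4 and 113 CPM without iron, against 42.8 and 51.9 CPM with iron (log2 fold change 0.92, SE 0.29, adjusted p = 0.098), and those of nde-2 gave 0.87 (SE 0.28, adjusted p = 0.107). Under total-count scaling both passed, with adjusted p = 0.0183 for nde-1 and 0.0215 for nde-2.

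**Figure D2:**
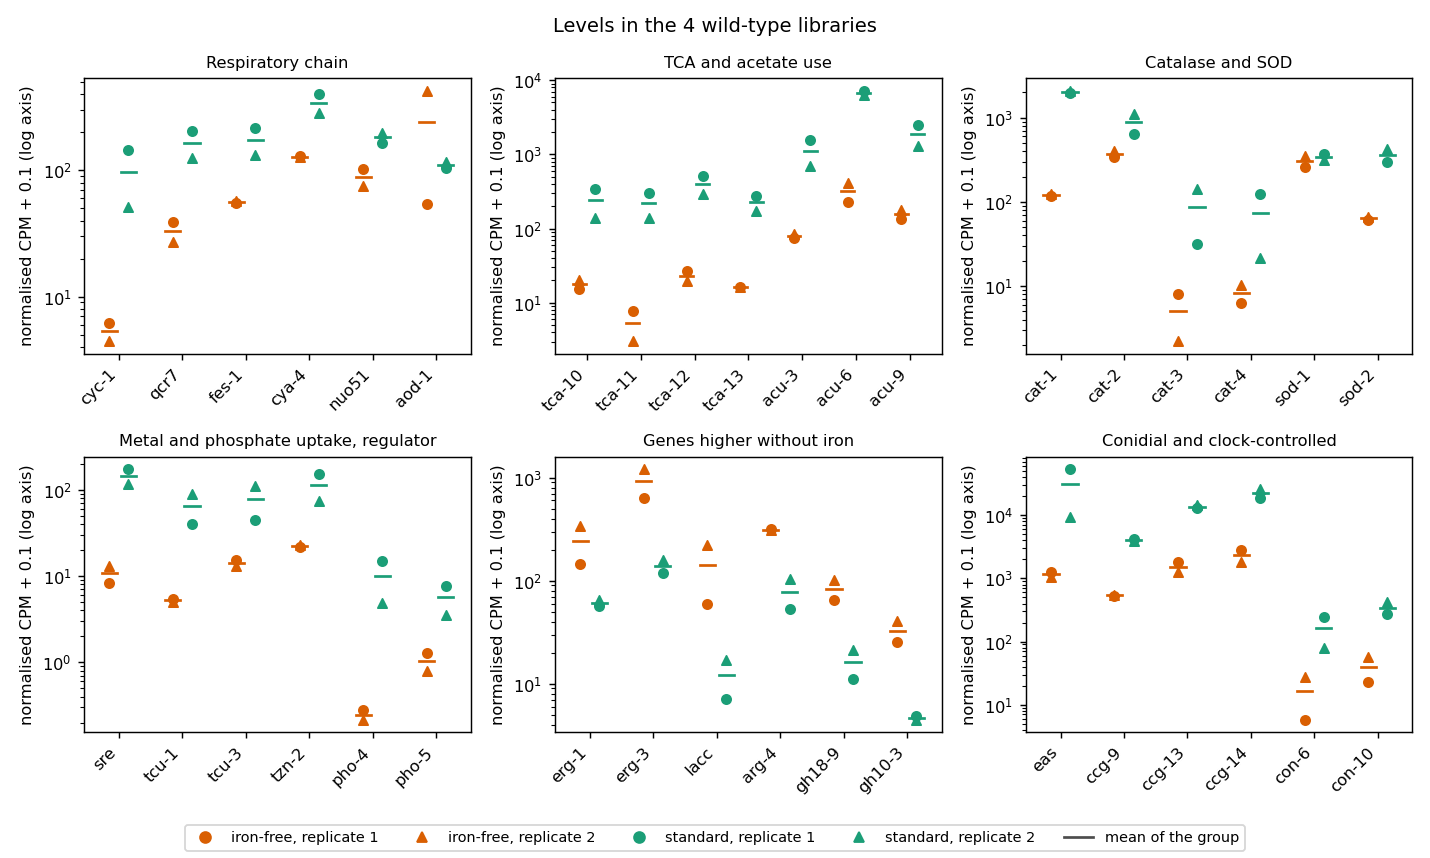
Normalised CPM plus 0.1 (vertical axes, log scale) of 37 genes in the 4 wild-type libraries; orange is iron-free and green standard medium, circles are replicate 1, triangles replicate 2 and bars the mean of the group. For cyc-1, the tca and acu genes, cat-1, sod-2, sre and the transporters all green points lie above the orange ones, while for aod-1 the 2 iron-free libraries lie on either side of the standard ones.

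In the TCA cycle list, with a median of -0.83, 5 of 18 tested genes fell and none rose, beside 5.1% and 1.47% of all genes. The 4 largest changes were in tca-10, tca-11, tca-12 and tca-13, and the fifth in tca-3. Whether any of these belongs to complex II is not given in the annotation used. For tca-11 levels were 7.67 and 2.92 CPM in iron-free cultures, against 297 and 140 CPM in standard cultures (log2 fold change -5.35, SE 0.59, adjusted p = 0.0102). For tca-12 they were 26.9 and 19.4 CPM without iron, against 512 and 294 CPM with iron (log2 fold change -4.12, SE 0.43, adjusted p = 0.00887). The gene tca-13 had 16.2 and 16 CPM without iron, against 278 and 173 CPM with iron (log2 fold change -3.81, SE 0.31, adjusted p = 0.00586). These 3 genes passed in all fits with a wild-type library left out except that without iron-free replicate 2, where the adjusted p was 0.0567, 0.0832 and 0.0567 for tca-11, tca-12 and tca-13. The gene tca-10 had 15.4 and 20.2 CPM without iron, against 340 and 139 CPM with iron (log2 fold change -3.75, SE 0.47, adjusted p = 0.0131). For tca-3 the change was smaller, with 325 and 226 CPM without iron against 1058 and 699 CPM with iron (log2 fold change -1.67, SE 0.32, adjusted p = 0.0302). At the other end of the list, tca-17 stood at 1.36 on the log2 scale (SE 0.36, adjusted p = 0.068), and cit-1, of citrate synthase, at -0.75 (SE 0.27, adjusted p = 0.132).

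The genes of acetate use, the glyoxylate cycle and gluconeogenesis all had negative log2 fold changes (median -2.20). Of the 7, 4 were called lower, beside 5.1% of all genes. The glyoxylate cycle spares the carbon of acetyl units that the TCA cycle would release, through isocitrate lyase (acu-3) and malate synthase (acu-9). In iron-free cultures acu-3 had 75 and 83.6 CPM, against 1543 and 704 CPM in standard cultures (log2 fold change -3.83, SE 0.64, adjusted p = 0.0229). For acu-9 levels were 135 and 180 CPM without iron, against 2455 and 1282 CPM with iron (log2 fold change -3.57, SE 0.66, adjusted p = 0.0278). The gene of the first step of gluconeogenesis, phosphoenolpyruvate carboxykinase (acu-6), had 227 and 413 CPM without iron, against 7151 and 6326 CPM with iron. Its log2 fold change was -4.40 (SE 0.89, adjusted p = 0.0351, and 0.0683 with the replicate block), and it was not called in any of the 4 fits with a wild-type library left out (largest adjusted p 0.137). The activator gene of acetate use acu-15 had 172 and 122 CPM without iron, against 743 and 604 CPM with iron (log2 fold change -2.20, SE 0.42, adjusted p = 0.0287, and 0.0578 with the block). In all 4 genes the groups were several-fold apart. Acetyl-CoA synthetase (acu-5), acetyl-CoA hydrolase (acu-8) and fructose bisphosphatase (fbp-1) were not called, with log2 fold changes of -1.23, -1.56 and -1.57.

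Glycolysis and alcohol fermentation showed 1 call by edgeR among 8 tested genes, while DESeq2 called 3 lower and 1 higher. Phosphoglycerate kinase (pgk) had 1431 and 1810 CPM in iron-free cultures, against 4351 and 4036 CPM in standard cultures (log2 fold change -1.37, SE 0.26, adjusted p = 0.029). With the block its adjusted p was 0.0739, and under total-count scaling 0.0558. The pyruvate decarboxylase gene cfp, of the first step from pyruvate to ethanol, had 5350 and 22060 CPM without iron, against 1716 and 5783 CPM with iron, so that its groups overlapped (log2 fold change 1.87, SE 0.77, adjusted p = 0.184). In both media it was higher in replicate 2.

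Among catalases, superoxide dismutases and peroxidases (median -2.83), 2 of 6 tested genes fell and none rose, beside 5.1% and 1.47% of all genes. The heme catalase gene cat-1 had 117 and 125 CPM in iron-free cultures, against 1992 and 2083 CPM in standard cultures. Replicates were close in both groups, and the log2 fold change was -4.07 (SE 0.80, adjusted p = 0.033, and 0.051 with the replicate block). In the fits with a wild-type library left out, cat-1 was not called (largest adjusted p 0.149), although its log2 fold change stayed between -4.10 and -3.98. The gene sod-2, of the mitochondrial manganese superoxide dismutase, had 61.3 and 66.1 CPM without iron, against 297 and 424 CPM with iron (log2 fold change -2.50, SE 0.32, adjusted p = 0.0131). Catalase cat-3 had 7.94 and 2.10 CPM without iron, against 31.9 and 142 CPM with iron, and cat-4 had 6.22 and 10.3 CPM without iron, against 125 and 21.7 CPM with iron. Neither of these was called (adjusted p = 0.101 and 0.106), and the standard cultures differed several-fold from each other, in opposite order. The catalase-peroxidase gene cat-2 had 341 and 401 CPM without iron, against 644 and 1120 CPM with iron (log2 fold change -1.25, SE 0.40, adjusted p = 0.101). The copper-zinc superoxide dismutase gene sod-1 had 259 and 348 CPM without iron, against 376 and 313 CPM with iron, and its groups overlapped.

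Of 29 tested genes of transport of other metals and ions, 6 fell and none rose, beside 5.1% and 1.47% of all genes. The median of the list was -0.13 (0.39 under total-count scaling). The copper transporter gene tcu-1 had 5.32 and 4.91 CPM in iron-free cultures, against 39.4 and 89.7 CPM in standard cultures (log2 fold change -3.65, SE 0.41, adjusted p = 0.0102). Another gene of that family, tcu-3, had 15.2 and 13 CPM without iron, against 44.9 and 109 CPM with iron (log2 fold change -2.45, SE 0.45, adjusted p = 0.0271, and 0.0537 with the block). The zinc transporter gene tzn-2 had 21.4 and 23.0 CPM without iron, against 152 and 73.5 CPM with iron (log2 fold change -2.34, SE 0.45, adjusted p = 0.0309). In all 3 the iron-free replicates were alike and the standard replicates differed, with tcu-1 and tcu-3 higher in replicate 2 and tzn-2 in replicate 1. Not all genes of these families were called. The third copper transporter gene, tcu-2, had a positive log2 fold change of 0.62 (adjusted p = 0.284), and the zinc transporter gene tzn-1 one of -0.71 (adjusted p = 0.364). The calcium/proton exchanger gene cax had 57.7 and 71.0 CPM without iron, against 210 and 225 CPM with iron (log2 fold change -1.76, SE 0.32, adjusted p = 0.0262).

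High-affinity phosphate permeases take up phosphate when it is scarce, and both of their genes, pho-4 and pho-5, fell. The gene pho-4 had 2 and 1 counts (0.18 and 0.117 CPM) in the iron-free libraries, against 103 and 32 counts (14.9 and 4.83 CPM) in the standard libraries. With 3 counts in the iron-free group, the level was 65.3-fold higher in the standard group, with a 95% counting interval of 21.9 to 320.4. The fitted test gave an adjusted p of 0.0292, and of 0.0511 with the block. For pho-5 levels were 1.17 and 0.701 CPM without iron, against 7.66 and 3.47 CPM with iron (log2 fold change -2.53, SE 0.58, adjusted p = 0.0462, and 0.0646 with the block). Both genes were at low levels in every library.

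Genes for the uptake and breakdown of sugars fell as well. In the list of sugar transport and storage (median -2.41) these were 4 of 8 tested, beside 5.1% of all genes. The cellodextrin transporter gene cdt-2 had 5.05 and 2.34 CPM in iron-free cultures, against 245 and 343 CPM in standard cultures. Its log2 fold change of -6.29 (SE 0.43, adjusted p = 0.00397) passed without each wild-type library in turn, between -6.92 and -5.77. The other cellodextrin transporter gene, cdt-1, had 95.6 and 68.9 CPM without iron, against 1098 and 487 CPM with iron (log2 fold change -3.27, SE 0.67, adjusted p = 0.0352, and 0.061 with the block). Trehalase (tre-1), which splits trehalose, had 2.71 and 1.52 CPM without iron, against 77.3 and 19.5 CPM with iron (log2 fold change -4.49, SE 0.86, adjusted p = 0.0308). Without standard replicate 1 the value for tre-1 was -3.17 (adjusted p = 0.0991). Invertase (inv), which splits the sucrose of the medium, had 160 and 272 CPM without iron, against 2148 and 1607 CPM with iron (log2 fold change -3.12, SE 0.45, adjusted p = 0.0162). For tre-1, inv and cdt-1 an overlapping annotated gene makes the counts uncertain, since the strand setting of the counting is not given in the sources used here.

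Both cdt genes also belong to the list of cellulose and hemicellulose use, in which 6 of 73 tested genes fell and 2 rose, with a median of -0.41 (0.16 under total-count scaling). These counts lie near the background of 5.1% lower and 1.47% higher over all genes. The other 4 falls were in glycoside hydrolase genes, gh3-3 (log2 fold change -3.02), gh31-3 (-2.17), gh13-1 (-1.57, adjusted p = 0.0437, and 0.11 with the block) and gh2-3 (-1.36, adjusted p = 0.0455, and 0.0514 with the block). The gene gh31-3 had 22.8 and 15.3 CPM in iron-free cultures, against 105 and 66.7 CPM in standard cultures (SE 0.40, adjusted p = 0.0264). The 2 genes that rose were gh10-3, of a xylanase family, and gh18-9, of a chitinase family that acts on the fungal wall and not on cellulose. Levels of gh10-3 were 25.3 and 40.1 CPM without iron, against 4.77 and 4.38 CPM with iron (log2 fold change 2.83, SE 0.49, adjusted p = 0.0239). Levels of gh18-9 were 64.5 and 102 CPM without iron, against 11 and 21.1 CPM with iron (log2 fold change 2.38, SE 0.39, adjusted p = 0.022), and this gene too overlaps another.

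In the cell wall list (median -0.60) 6 of 28 tested genes fell and 1 rose, beside 5.1% and 1.47% of all genes. The falls were in the wall protein genes acw-5, ncw-5, acw-4 and acw-8, in gel-4 and in the chitin synthase gene chs-5 (adjusted p = 0.022, and 0.0537 with the block). The anchored wall protein gene acw-5 had 518 and 476 CPM in iron-free cultures, against 4199 and 2999 CPM in standard cultures (log2 fold change -2.86, SE 0.29, adjusted p = 0.00887). For acw-8 levels were 2255 and 2068 CPM without iron, against 9931 and 9872 CPM with iron (log2 fold change -2.20, SE 0.33, adjusted p = 0.0185). The replicates of both groups were close for this gene. The wall protein gene ncw-2 moved the other way, with 904 and 707 CPM without iron against 175 and 316 CPM with iron (log2 fold change 1.71, SE 0.36, adjusted p = 0.0373, and 0.0662 with the block).

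Of 21 tested genes of conidiation and conidia (median -1.67), 6 fell and none rose, beside 5.1% and 1.47% of all genes. The falls were in the clock-controlled genes ccg-8, ccg-9, ccg-13, ccg-14 and ccg-15 and the regulator gene rca-1. The trehalose synthase gene ccg-9 had 528 and 548 CPM in iron-free cultures, against 4260 and 3870 CPM in standard cultures (log2 fold change -2.92, SE 0.26, adjusted p = 0.00586). For ccg-13 levels were 1841 and 1249 CPM without iron, against 12910 and 14510 CPM with iron (log2 fold change -3.15, SE 0.52, adjusted p = 0.022). The gene ccg-14, of a small secreted protein, had 2814 and 1815 CPM without iron, against 19010 and 26570 CPM with iron (log2 fold change -3.30, SE 0.54, adjusted p = 0.022). In these 3 the replicates of a group differed far less than the groups. For ccg-15 the change was smaller, with 5281 and 5374 CPM without iron against 12880 and 14310 CPM with iron (log2 fold change -1.35, SE 0.26, adjusted p = 0.029), and it was lost with the block (adjusted p = 0.0926) and under total-count scaling (0.0682). The blocked adjusted p was 0.0862 for ccg-8 and 0.0594 for rca-1.

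The best known conidial genes did not pass. The hydrophobin gene eas, whose product coats the conidium, had 1253 and 1073 CPM in iron-free cultures, against 53740 and 9323 CPM in standard cultures (log2 fold change -4.76, SE 1.42, adjusted p = 0.0887). The gene con-6 had 5.68 and 27.6 CPM without iron, against 249 and 79.1 CPM with iron, and con-10 had 22.6 and 56.5 CPM without iron, against 272 and 416 CPM with iron. Their groups did not overlap, but the replicates differed several-fold (adjusted p = 0.0687 and 0.0804). The regulator fluffy (fl), which controls conidiophore development, had 76.2 and 128 CPM without iron, against 133 and 82.4 CPM with iron, and overlapped.

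As a check of the labelled tissue, 14 marker genes of conidia and aerial growth summed to 13440 and 16460 CPM in iron-free cultures, against 106500 and 69940 CPM in standard cultures. Of the 14, 3 were called lower (ccg-9, ccg-13 and ccg-14), beside 5.1% of all genes. The largest part of the sum was eas, which was not called, in standard replicate 1, and ccg-14 in standard replicate 2. The 5 markers of vegetative hyphae were detected in every library, and none was called. Their sums were 13200 and 18380 CPM without iron, against 36180 and 30780 CPM with iron. Most of each sum came from the glycolysis gene gpd-1 (log2 fold change -1.22, adjusted p = 0.0733). The median log2 fold change of the 5 was 0.07, and 2 of them lay below the median of all genes. The 8 tested markers of sexual tissue summed to 974 and 661 CPM without iron, against 472 and 793 CPM with iron, with no call. The summed level of conidial markers thus moved with the medium, though most of these markers were not called. Their part in the results on the wall, sugar, catalase and other genes was not tested.

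Of 13 tested chaperone and heat shock genes (median -0.59), 3 fell and none rose, beside 5.1% and 1.47% of all genes. The mitochondrial disaggregase gene hsp78 had 15 and 17.1 CPM in iron-free cultures, against 119 and 60.5 CPM in standard cultures (log2 fold change -2.49, SE 0.52, adjusted p = 0.0365). Its cytosolic counterpart hsp98 had 339 and 334 CPM without iron, against 1008 and 1011 CPM with iron (log2 fold change -1.59, SE 0.34, adjusted p = 0.0391). The chaperone gene hsp70-1 had 1502 and 1289 CPM without iron, against 4106 and 4649 CPM with iron (log2 fold change -1.65, SE 0.32, adjusted p = 0.0292, and 0.0683 with the block). Under total-count scaling hsp98 and hsp70-1 were not called, with adjusted p = 0.0659 and 0.0572.

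**Figure D3:**
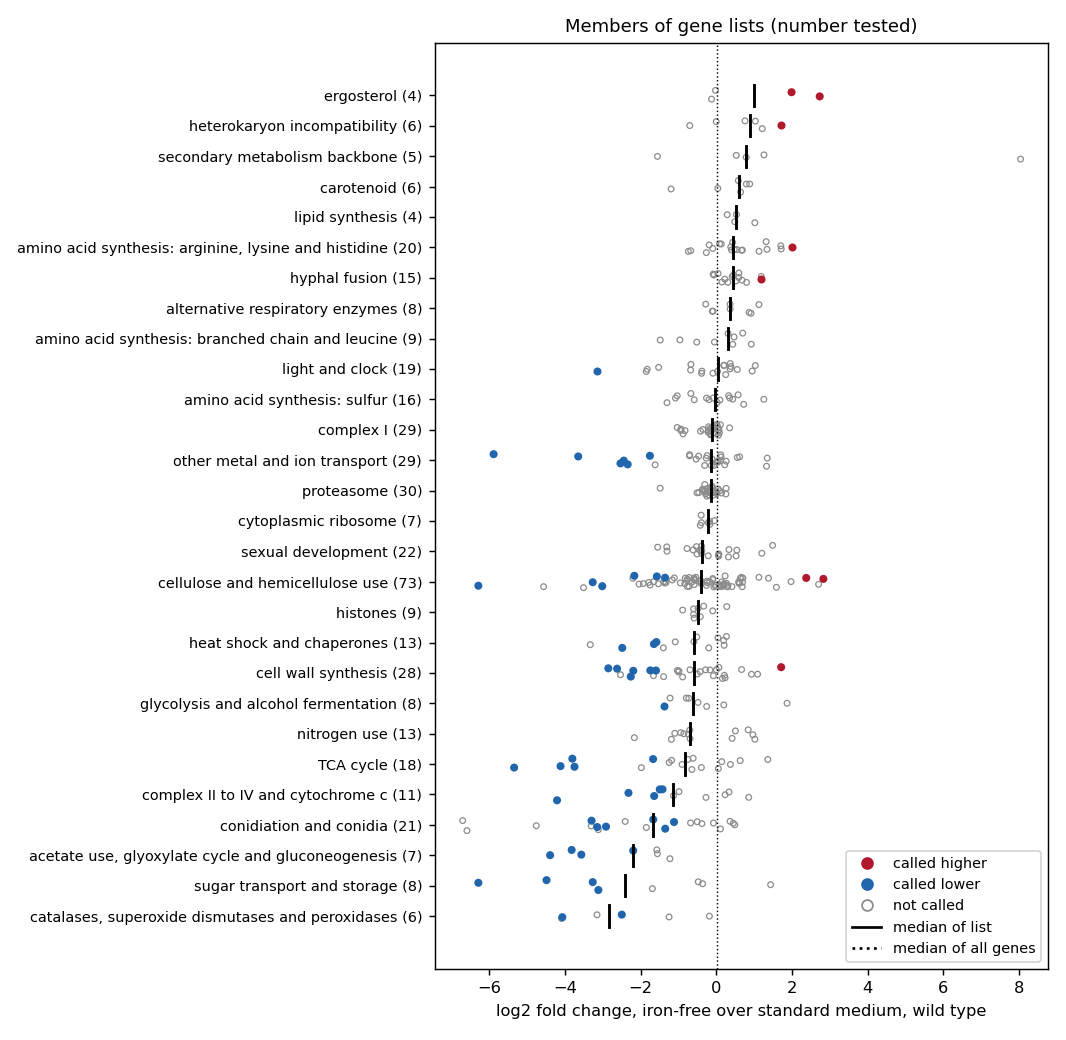
Log2 fold change of iron-free over standard medium (horizontal axis) for each tested member of the lists with at least 4 tested genes; filled points were called, open points were not, black ticks are list medians and the dotted line is the median of all genes. Catalases, sugar transport and acetate use have the lowest medians, and complex I and the proteasome cluster near 0 with no call.

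Fewer named genes rose, 16 of the 119 with a symbol, against 72 with a symbol among the 414 that fell. In ergosterol synthesis, which makes the main fungal membrane sterol, 2 of 4 tested genes rose and none fell, beside 1.47% and 5.1% of all genes. The median of this list was 0.98. The sterol C-14 reductase gene erg-3 had 639 and 1206 CPM in iron-free cultures, against 118 and 159 CPM in standard cultures (log2 fold change 2.73, SE 0.47, adjusted p = 0.0239). For erg-1 levels were 146 and 336 CPM without iron, against 57.2 and 64.2 CPM with iron (log2 fold change 1.99, SE 0.46, adjusted p = 0.0481, and 0.0523 with the block). Both were higher in iron-free replicate 2 than in iron-free replicate 1. The remaining members, erg-4 and sah-2, had log2 fold changes of -0.02 and -0.13 and overlapping groups.

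The laccase gene lacc, of a secreted multicopper oxidase, had 59.4 and 223 CPM in iron-free cultures, against 6.93 and 17.1 CPM in standard cultures (log2 fold change 3.56, SE 0.71, adjusted p = 0.0347). Without iron-free replicate 2 the value for lacc was 2.40 (adjusted p = 0.115). Of 20 tested genes of arginine, lysine and histidine synthesis, arg-4 alone was called by edgeR, while DESeq2 called 4 higher and total-count scaling gave 7 higher. It had 314 and 311 CPM without iron, against 52.6 and 104 CPM with iron (log2 fold change 2.0, SE 0.41, adjusted p = 0.0354), and the list had a median of 0.45 with 15 positive values. Among the 15 tested genes of hyphal fusion edgeR called only mek-1, a MAP kinase kinase gene of the cell wall integrity pathway, while DESeq2 called 4 higher and total-count scaling gave 5 higher. Its levels were 914 and 953 CPM without iron, against 337 and 487 CPM with iron (log2 fold change 1.18, SE 0.27, adjusted p = 0.046, and 0.0777 with the block). Of 6 tested genes of heterokaryon incompatibility pin-c rose, with 35.3 and 25.9 CPM without iron against 7.37 and 11.3 CPM with iron (log2 fold change 1.71, SE 0.34, adjusted p = 0.0318, and 0.0729 with the block). For lacc, erg-3, erg-1, arg-4, mek-1 and pin-c the largest adjusted p came without standard replicate 1, between 0.128 (erg-3) and 0.234 (mek-1).

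The largest rises among genes with a symbol also included ci-1 and ecd-1. The gene ci-1 had 6.41 and 67.8 CPM in iron-free cultures, against 1.59 and 1.06 CPM in standard cultures (log2 fold change 4.79, SE 1.10, adjusted p = 0.0488, and 0.0769 with the block). Without iron-free replicate 2 its log2 fold change was 2.35 (adjusted p = 0.0877), and it was called in 1 of the 4 fits with a wild-type library left out, that without iron-free replicate 1 (5.71). The gene ecd-1 had 12.6 and 19.9 CPM without iron, against 2.17 and 4.83 CPM with iron (log2 fold change 2.21, SE 0.44, adjusted p = 0.0332). Iron-free replicate 2 was the higher one in both. The polyketide synthase gene pks-5 had 15.3 and 1482 CPM without iron, against 1.59 and 4.08 CPM with iron. Its log2 fold change of 8.04 (SE 1.96) had an adjusted p of 0.0563, and edgeR called none of the 5 tested polyketide synthase genes, while DESeq2 called 1 higher and 1 lower and total-count scaling gave 3 higher. Among the falls, acd-2 had 15.8 and 9.81 CPM in iron-free cultures, against 267 and 141 CPM in standard cultures (log2 fold change -3.99, SE 0.41, adjusted p = 0.00887).

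Most of the called genes have no symbol in the annotation used and are given by locus only. The 2 largest rises without a symbol were in NCU05089 and NCU07034. NCU05089 had 197 and 293 CPM in iron-free cultures, against 2.02 and 14.9 CPM in standard cultures (log2 fold change 4.86, SE 0.79, adjusted p = 0.022). NCU07034 had 90.4 and 210 CPM without iron, against 1.16 and 13.4 CPM with iron (log2 fold change 4.37, SE 0.93, adjusted p = 0.0383). Without standard replicate 2 the values were 6.91 for NCU05089 and 7.0 for NCU07034, and without standard replicate 1 they were 4.04 and 3.48. Of the genes that passed without each wild-type library, NCU03107 was the only one to rise, with 281 and 250 CPM without iron against 34.4 and 44.7 CPM with iron (log2 fold change 2.75, SE 0.25, adjusted p = 0.00586).

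The 4 largest falls among called genes with a mean of at least 50 normalised counts in the standard group were all without a symbol. NCU08491 had 0.0902 and 1.28 CPM in iron-free cultures, against 183 and 118 CPM in standard cultures (log2 fold change -7.86, SE 1.25, adjusted p = 0.0217). NCU02238 had 1.08 and 0.584 CPM without iron, against 262 and 107 CPM with iron (log2 fold change -7.73, SE 0.76, adjusted p = 0.00887). NCU07869 had 14.9 and 6.89 CPM without iron, against 2634 and 1663 CPM with iron (log2 fold change -7.62, SE 0.84, adjusted p = 0.0102). NCU06413 had 0.632 and 1.52 CPM without iron, against 50.4 and 191 CPM with iron (log2 fold change -6.83, SE 0.84, adjusted p = 0.0131). For NCU08491 the log2 fold change was -10.40 without iron-free replicate 2 and -6.81 without iron-free replicate 1, and neither fit called it. In all 4 the groups lay far apart, and the last 3 genes overlap another annotated gene. NCU00985, NCU05512, NCU06974 and NCU17100, which passed without each wild-type library, had log2 fold changes of -5.99, -5.29, -4.91 and -5.40.

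In 16 lists no gene was called by edgeR in either direction, among them the 7 tested genes of the cytoplasmic ribosome, 9 of histones, 30 of the proteasome, 16 of sulfur amino acid synthesis, 13 of nitrogen use, 6 of carotenoid synthesis and 22 of sexual development. Over the 166 genes of these 16 lists, 6 were higher and 23 lower at an unadjusted p under 0.05, and DESeq2 called 3 higher and 13 lower. The medians of the lists just named lay between -0.70 (nitrogen use) and 0.61 (carotenoids). The summed level of the 30 proteasome genes was 3353 and 3605 CPM without iron, against 3885 and 4551 CPM with iron. In carotenoid synthesis the sums were 471 and 4454 CPM without iron, against 857 and 2517 CPM with iron, so replicates differed more than media did. In the light and clock list of 19 tested genes, ccg-13 was the only call by edgeR, and DESeq2 called 4 lower. The 10 lists with falls and no rise held 135 genes, of which 7 were higher at an unadjusted p under 0.05 and 6 were called higher by DESeq2.

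The makeup of the libraries differed between media, which bears on how counts are scaled. The 414 genes called lower held 7.12% (Wilson 95% interval 7.11 to 7.14) and 5.87% (5.86 to 5.89) of all counts in the iron-free libraries, against 26.3% (26.3 to 26.4) and 27.4% (27.4 to 27.4) in the standard libraries. The 119 genes called higher held 2.55% and 2.46% of counts in the iron-free libraries, against 0.444% and 0.629% in the standard libraries. NCU07232 alone held 0.0872% and 0.0477% of counts without iron, against 3.69% and 5.58% with iron, and its log2 fold change was -6.66 (SE 0.57, adjusted p = 0.00586). The hydrophobin gene eas held 0.158% and 0.106% without iron, against 4.23% and 0.721% with iron. The 10 most abundant genes of each library took 7.86% and 11.4% of counts without iron, against 18.6% and 17.0% with iron. Without molecular identifiers PCR copies count as reads, so that these intervals hold counting error alone.

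Accordingly the ratio-based TMM factors differed, at 1.26 and 0.985 for the iron-free libraries against 0.787 and 0.774 for the standard libraries. With total counts in place of TMM, the log2 fold change of the median gene moved by 0.52, from the same counts. The split of calls then turned round, with 1003 genes higher (12.4%) and 287 lower (3.54%), so that 77.8% of calls were higher, against 22.3% under TMM. The other scalings stayed near TMM, with 130 higher and 384 lower under relative log expression and 170 higher and 350 lower under upper-quartile factors. Of the 55 called genes that the naming rule took for wild type, 50 were also called under total-count scaling and none changed sign. The 5 lost were cya-4, pgk, ccg-15, hsp70-1 and hsp98. Which direction most calls took thus depended on the scaling.

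**Figure D4:**
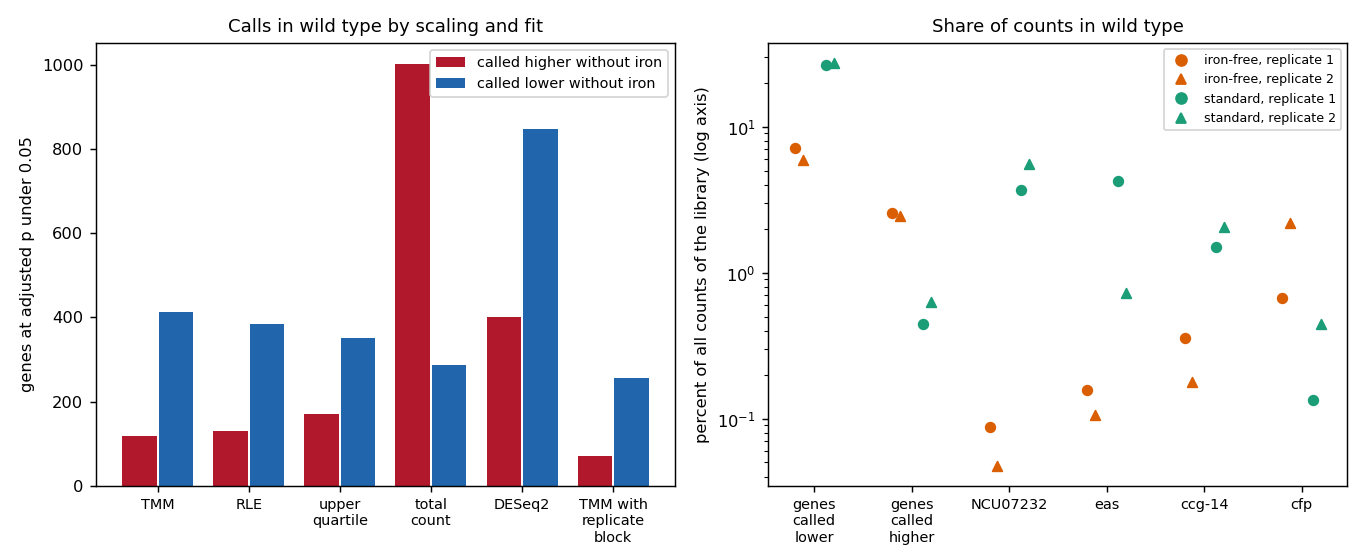
Left, number of genes called higher (red) and lower (blue) without iron under each scaling or fit (vertical axis, genes at adjusted p under 0.05); right, percent of all counts of a library (log axis) taken by the called genes and by 4 single genes, orange for iron-free and green for standard libraries. Total-count scaling gives 1003 genes higher and 287 lower, the reverse of the other settings, and the genes called lower take over 26% of counts in the standard libraries.

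In the ve-1 mutant, absence of iron gave 881 genes higher (10.9%) and 941 lower (11.6%) in the same fit, from 4 libraries that do not enter the wild-type difference. Of the wild-type calls, 46 of 119 higher genes were also higher in the mutant, which is 38.7% of the wild-type list and 5.22% of that of the mutant. Of the lower genes 206 of 414 were also lower there (49.8% and 21.9%), while 2 higher and 3 lower genes were called in the opposite direction. The repressor gene sre had a log2 fold change of -3.77 in wild type and -4.48 (adjusted p = 0.00256) in ve-1. The gene erg-3 had 2.73 in wild type and 3.60 (adjusted p = 0.00844) in ve-1, and NCU02238 had -7.73 and -7.66. For these 3 the difference between genotypes was not called (adjusted p = 0.391, 0.472 and 0.978).

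The difference itself was called for 20 genes (0.246% of those tested), and 7 of them were among the 533 called in wild type. At an unadjusted p under 0.05 there were 1650, and DESeq2 called 601. This count was 0 without iron-free wild-type replicate 2 or ve-1 iron-free replicate 1, and 1 to 4 without either standard wild-type replicate, ve-1 standard replicate 1 or ve-1 iron-free replicate 2. NCU06974 had 6.22 and 5.61 CPM in iron-free wild type, against 212 and 144 CPM in standard wild type. In ve-1 it had 41.7 and 40.5 CPM without iron, against 57.3 and 69.4 CPM with iron, and the wild-type change minus that in ve-1 was -4.28 on the log2 scale (SE 0.36, adjusted p = 0.0147). NCU04482 had 32.5 and 39.6 CPM in iron-free wild type, against 374 and 1081 CPM in standard wild type, whereas ve-1 had 18.1 and 27.0 CPM without iron, against 4.32 and 5.04 CPM with iron. NCU00175 had 209 and 129 CPM in iron-free wild type, against 2585 and 2924 CPM in standard wild type, and stayed at or under 26.4 CPM in all 4 libraries of ve-1.

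Several metabolic genes had a call in wild type and none in the mutant, without a called difference between genotypes. The log2 fold change of acu-3 was -3.83 in wild type and 0.37 in ve-1 (difference -4.19, adjusted p = 0.0886), and that of acu-9 was -3.57 in wild type and 1.58 in ve-1 (difference -5.15, adjusted p = 0.0786). For inv the values were -3.12 in wild type and 0.02 in ve-1 (difference -3.14, adjusted p = 0.0854). For cyc-1 they were -4.21 in wild type and -0.83 in ve-1 (difference -3.38, adjusted p = 0.112). In complex I, 18 of 29 genes were called higher without iron in ve-1 and none in wild type, and the difference was called by edgeR for none of the 29, with 22 at an unadjusted p under 0.05.

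**Figure D5:**
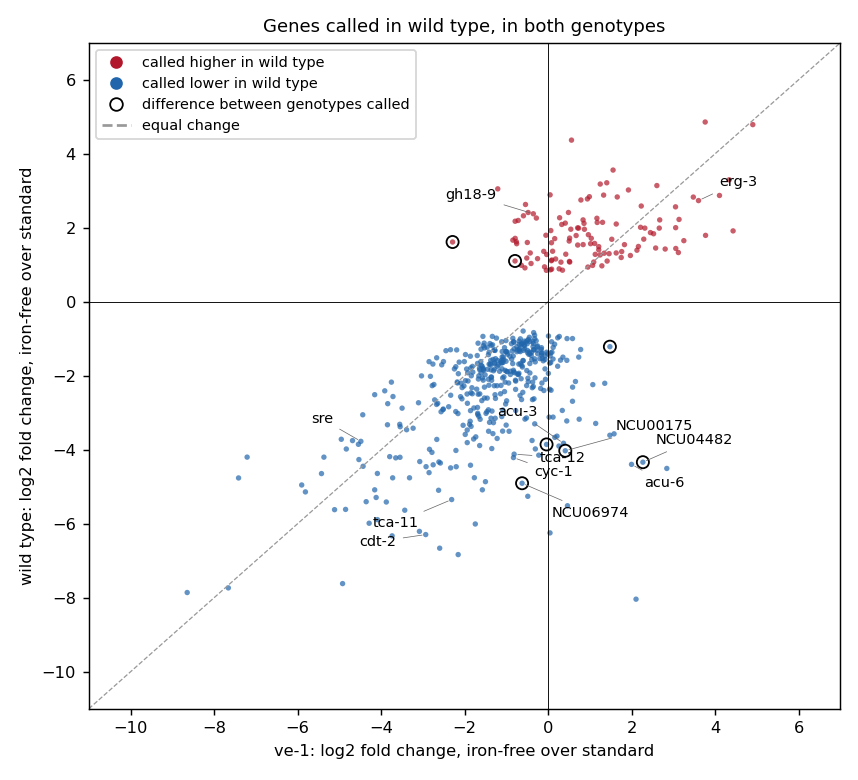
Log2 fold change of iron-free over standard medium in wild type (vertical axis) against that in ve-1 (horizontal axis) for the 533 genes called in wild type, red where higher and blue where lower; rings mark the 7 genes with a called difference between genotypes and the dashed line is an equal change. Most points fall in the quadrants of equal sign, sre and cdt-2 among them, while NCU04482 and acu-6 are lower in wild type and to the right of 0 in ve-1.

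The authors' deposited table for this comparison lists 1004 genes, 250 higher and 754 lower without iron. It holds 106 of the 119 genes called higher and 397 of the 414 called lower, and none of the shared genes has the opposite sign. With DESeq2 on the 4 groups, 1249 genes were called (402 higher, 847 lower), all 533 among them.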

How the data were processed

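Poly(A) RNA of 8 cultures was sequenced. For each library the authors deposited unscaled read counts of 9730 genes. FastQC, Trim Galore, STAR and DESeq2 are named in the submitters' processing notes, and a stranded kit in the labels' protocols. For the counting tool, strand setting, build and annotation nothing is given in the sources used here. A comparison table that the authors deposited (log2 fold changes and adjusted p-values, deposited mean counts as signal) was used only to count shared genes.

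Symbols came from the RefSeq table of assembly NC12, which matched 9729 identifiers and names 1089 of the tested genes. No sequence or coordinate is printed, so promoter motifs were not analysed here. Of 69 genes that the naming rule took for wild type, 16 overlap another gene.

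In R 4.3.3, edgeR 4.0.16 kept genes by filterByExpr (minimum count 10, minimum total 15), applied TMM factors and fitted the 8 libraries in 4 groups (robust quasi-likelihood, 4 residual degrees of freedom). Calls were made at an adjusted p under 0.05 (two-sided F test, Benjamini-Hochberg over all tested genes). SE is the size of the log2 fold change over the root of F. Levels are TMM-normalised CPM, and n is 2 a group. Nothing states that replicates came from separate inocula, so p-values measure only the spread between these cultures. The steps were run on simulated counts with the same spread for all genes, changes of random sign and no difference between strains. That run did not test the shift in library makeup or the dependence on single libraries seen here.

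The rule named, among called genes with groups that do not overlap and at least 50 normalised counts in the higher group, the 10 strongest rises and 10 strongest falls bearing a symbol, the 4 strongest each way with or without a symbol, up to 4 called members of each of 34 gene lists, all members of 4 lists, and 5 genes a direction for the difference between genotypes. Genes outside it (pep, pho-5, tca-3, gel-4, chs-5, tzn-2, NCU07232 and uncalled members) were named after their values were seen. Members and lists were chosen with earlier results of these data known, and 13 symbols that matched a list by spelling alone were removed.

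The names of the deposited count tables carry 1 number for each replicate number within a genotype, the same in both media, and matA-1 counts follow it in wild type but not in ve-1. Replicate numbers were read as pairs on the strength of the table names, with this doubt. The correlation across genes of the difference between replicates in iron-free and in standard medium was 0.05 in wild type and -0.03 in ve-1. Alternatives were other scalings, DESeq2 1.42.0, no filter, wild-type libraries alone, the replicate block (2 residual degrees of freedom) and each library left out.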

Additional observations from a re-analysis of the deposited data

Results flagged for a closer look

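For 10 genes the effect of iron absence in wild type differed from that in ve-1 by a called test of the difference (edgeR, adjusted p under 0.05), the 5 highest and the 5 lowest of those with at least 50 normalised counts. The log2 effect in wild type minus that in ve-1 was 12.09 for NCU10016, 11.54 for NCU05887, 8.67 for NCU01057, 8.29 for NCU07610 and 4.86 for NCU10015. None of these 5 was called in wild type, and each was high in the ve-1 standard libraries alone. The first 4 reached 50 normalised counts in ve-1 and not in wild type. NCU10016 had 6 and 1 counts in iron-free wild type, against 2 and 1 in standard wild type, too few to give a wild-type change. It had 0.541 and 0.117 CPM in iron-free wild type, against 0.289 and 0.151 CPM in standard wild type, and in ve-1 0.352 and 0.161 CPM without iron, against 954 and 497 CPM with iron.

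The lowest differences were -6.61 for NCU04482, -4.44 for NCU00175, -4.28 for NCU06974, -3.82 for NCU04644 and -2.69 for NCU01704, all called lower in wild type. NCU04644 had 32.2 and 24.1 CPM in iron-free wild type, against 418 and 398 CPM in standard wild type, and in ve-1 106 and 60.6 CPM without iron, against 79.3 and 91.3 CPM with iron. NCU01704 had 52.0 and 58.7 CPM in iron-free wild type, against 140 and 117 CPM in standard wild type, lost its wild-type call with the replicate block (adjusted p = 0.0262, and 0.0575 with the block), and moved the other way in ve-1, with 92.2 and 119 CPM without iron, against 35.8 and 40.0 CPM with iron.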

How the results depend on the processing

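The counts of calls moved most. Genes called higher in wild type (119) numbered 1003 under total-count scaling, 402 with DESeq2 and 7 with the wild-type libraries alone, and ranged from 1 to 145 with 1 library left out. Genes called lower (414) numbered 847 with DESeq2 and 118 with the wild-type libraries alone, and ranged from 6 to 500 with 1 library left out. Chosen after seeing the data, the calls that held without each wild-type library numbered 1 higher and 6 lower. Differences between genotypes (20) numbered 601 with DESeq2 and 35 with no filter, and ranged from 0 to 22 with 1 library left out. In the fits without 1 library of a group, the lone sample is assumed to vary like the other groups.

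With the replicate block, which reads equal replicate numbers as pairs, 71 genes were higher and 255 lower; 16 of the 55 calls that the naming rule took for wild type were lost, and no other call among those genes changed. None of the 55 changed sign in any setting, and relative log expression, upper-quartile scaling, DESeq2 and no filter kept all 55.

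Signs turned in uncalled genes only, and the cause was not tested. Under total-count scaling the log2 fold change was 0.41 for aod-2, 0.42 for aod-5, 0.24 for nde-3 and 0.31 for sod-1, under upper-quartile scaling 0.010 for aod-2, and with the block -0.18 for aod-3. With a library left out, ndi-1 ranged from -0.86 to 1.21, aod-2 from -0.30 to 0.16, aod-3 from -1.73 to 1.26 and sod-1 from -0.32 to 0.062, and without iron-free replicate 2 aod-5 was at 0.026 and aod-1 at -0.92. The promoter description could not be run, since no sequence table was at hand.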

Other observations

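Called genes lay beside each other in the annotation order in short runs. No run of 4 or more neighbouring tested genes was called in 1 direction with at least 2-fold change. There were 7 runs of 3 lower genes and 1 of 3 higher genes, and 31 pairs of lower and 4 of higher neighbours. The copper transporter gene tcu-1 lay beside NCU00829, which had 6.5 and 4.79 CPM without iron, against 40.2 and 107 CPM with iron (log2 fold change -3.70, SE 0.50, adjusted p = 0.0149). Of the run NCU05134, NCU05133 and NCU05132, the log2 fold changes were -5.63, -6.01 and -3.50. The run of 3 higher genes was nic-8, NCU00712 and NCU00711, with log2 fold changes of 1.26, 1.31 and 2.12. With the replicate block the adjusted p was 0.0537 for NCU05132, 0.0657 for nic-8 and 0.0683 for NCU00712, and these calls were lost. The chitinase family gene gh18-9 lay beside NCU07034, and both rose.

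Some called genes outside the named lists were picked after their values were seen. The gene egt-1, of ergothioneine synthesis, had 615 and 1548 CPM in iron-free cultures, against 4490 and 4663 CPM in standard cultures (log2 fold change -2.08, SE 0.48, adjusted p = 0.0478, and 0.0636 with the replicate block). The glucoamylase gene gla-1 had 71.5 and 91.9 CPM without iron, against 768 and 469 CPM with iron (log2 fold change -2.92, SE 0.52, adjusted p = 0.0262). Both had groups that did not overlap.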
